A study of Mus musculus with 60 samples.

Results

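Interferon-stimulated genes, the antiviral genes that cells switch on after sensing foreign nucleic acid, were examined in cultured mouse cortical neurons that had received a small interfering RNA (siRNA). The 9 genes were taken from a fixed list, Ifit1, Ifit3, Rsad2, Oasl2, Bst2, Isg15, Usp18, Irf7 and Ifi27, and all 9 were found among the 39756 genes of the expression table. The table holds TPM values, the length-corrected share of each gene in the transcripts of a library, scaled to the same sum in each of the 48 libraries. Of the 9 genes, 8 had a mean of at least 1 TPM and entered the tests across 14250 genes, whereas Usp18 did not and is given from a fit without that filter.

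The libraries were bulk RNA from WT mouse cerebral cortex, labelled as cortical neurons. The labels give E18 embryos as the source of the cultures, whereas a figure legend of the paper describes them as E15 mouse cultures. Cultures received paxillin siRNA (PXN) or scrambled siRNA (SC) at day 2 in vitro (DIV2), with or without BDNF at 20 ng/ml given at DIV2. RNA was taken at DIV3, at DIV5 or at DIV10. Without BDNF there were 3 SC and 5 PXN libraries at DIV3, 4 and 6 at DIV5, and 3 and 4 at DIV10. With BDNF there were 3 and 4 at DIV3, 4 and 5 at DIV5, and 3 and 2 at DIV10. The 2 E15 libraries carried no siRNA or BDNF label. Every one of the 46 culture libraries had received an siRNA. So siRNA delivery, time in culture and the later embryonic source given in the labels cannot be told apart in any contrast with E15. Scrambled siRNA is itself an siRNA and serves as the control for the targeted sequence only.

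In vertebrate cells, foreign double-stranded RNA is sensed in endosomes by Tlr3 and in the cytosol by the RIG-I family, and the adaptor Mavs relays the cytosolic signal to transcription factors that switch on type I interferon genes. Secreted interferon binds the receptor Ifnar1/Ifnar2, and signalling from the receptor then activates a large set of antiviral genes through a short promoter element, the interferon-stimulated response element. In the brain, microglia and astrocytes are strong responders. The 9 genes cover several arms of that program. Ifit1 binds foreign RNA ends and acts together with Ifit3. Rsad2 (viperin) makes a chain-terminating nucleotide, Oasl2 belongs to the oligoadenylate synthetase family, and Bst2 (tetherin) holds virions at the cell surface. Isg15 is a ubiquitin-like modifier, Usp18 removes it and damps the receptor, Irf7 is the transcription factor that amplifies interferon production, and Ifi27 is a small hydrophobic membrane protein.

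The genes lie on 7 chromosomes of GRCm38.p6. Ifit3 (chr19:34583119-34588982) and Ifit1 (chr19:34640889-34650009) are neighbours on the plus strand, and Rsad2 (chr12:26442743-26456452, minus) and Ifi27 (chr12:103434189-103440245, plus) share chromosome 12. The others are Isg15 (chr4:156199424-156200818, minus), Oasl2 (chr5:114896926-114912245, plus), Usp18 (chr6:121245906-121270917, plus), Irf7 (chr7:141263183-141266499, minus) and Bst2 (chr8:71534255-71537472, minus). A RefSeq promoter window, 250 bases before to 50 after a transcript start, was given for 7 of the 9. The core of the response element was searched as GAAA, any 2 bases, GAAA, on both strands and with overlapping matches allowed. It was found in 5 of these 7 windows and in 3.44% of 32851 windows over all genes. The stretches are shown for the 5 genes with a match, and whether these genes respond through them was not tested. Each is written in the direction of its gene, and capitals mark the matches, which read TTTC, 2 bases, TTTC when they lie on the opposite strand.
Ifit1 (chr19:34640773-34640825, plus strand): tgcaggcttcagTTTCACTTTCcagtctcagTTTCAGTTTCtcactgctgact
Ifit3 (chr19:34583361-34583428, plus strand): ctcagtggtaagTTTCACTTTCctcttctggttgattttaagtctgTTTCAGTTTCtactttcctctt
Isg15 (chr4:156200863-156200908, minus strand): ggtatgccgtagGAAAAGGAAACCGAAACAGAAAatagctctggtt
Bst2 (chr8:71537575-71537614, minus strand): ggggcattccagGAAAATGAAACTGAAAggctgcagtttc
Rsad2 (chr12:26456551-26456584, minus strand): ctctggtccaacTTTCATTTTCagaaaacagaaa
Windows were placed on a RefSeq transcript start, which was the gene limit given above for Ifit1, Isg15, Bst2 and Rsad2 and lay inside it by 410 bases for Ifit3 (chr19:34583529), 75 for Irf7 and 8 for Oasl2. The matches started 104 and 85 bases before that transcript start in Ifit1, 156 and 122 in Ifit3, from 78 to 66 in the 3 overlapping matches of Isg15, 130 and 124 in Bst2, and 120 in Rsad2. The windows of Irf7 and Oasl2 held no such letters, which says nothing about the factors that act on them.

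All 9 genes were transcribed at low to moderate levels. Over the 48 libraries the median was highest for Bst2 at 14.5 TPM, followed by Ifi27 at 6.20 TPM, Isg15 at 3.64 TPM, Oasl2 at 3.22 TPM, Ifit3 at 3.03 TPM, Irf7 at 2.66 TPM, Ifit1 at 0.910 TPM, Rsad2 at 0.893 TPM and Usp18 at 0.298 TPM. The spread was wide, from 0.450 to 33.6 TPM for Ifit3, from 0.199 to 18.8 TPM for Isg15 and from 1.64 to 63.6 TPM for Bst2. Ifit1 was listed at 0 in 5 libraries, Usp18 in 4 and Irf7 in 1. TPM values keep no read depth, so counting error behind such values is unknown. The highest of the 13 group means belonged to DIV3 SC for Isg15 (8.52 ± 9.17 TPM, SD, n = 3), Irf7 (7.15 ± 9.38 TPM), Oasl2 (15.1 ± 19.3 TPM) and Usp18 (1.15 ± 1.60 TPM). It belonged to DIV10 SC with BDNF for Ifit1 (3.07 ± 3.09 TPM, n = 3), Ifit3 (16.2 ± 15.2 TPM), Rsad2 (4.41 ± 4.57 TPM) and Ifi27 (22.7 ± 18.2 TPM), and to DIV10 PXN for Bst2 (37.1 ± 18.8 TPM, n = 4). DIV5 PXN had the lowest mean for 6 genes, such as Ifit1 at 0.379 ± 0.437 TPM and Isg15 at 1.54 ± 1.38 TPM (n = 6). With the 13 groups ordered by mean, the ranges of neighbouring groups overlapped in all 12 pairs for 8 genes, and for Ifi27 in all but the pair of DIV5 PXN above E15. The share of all genes with such a gap is not given. The plot of the 9 genes by library shows how far the libraries within a group stood apart.

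**Figure D1:**
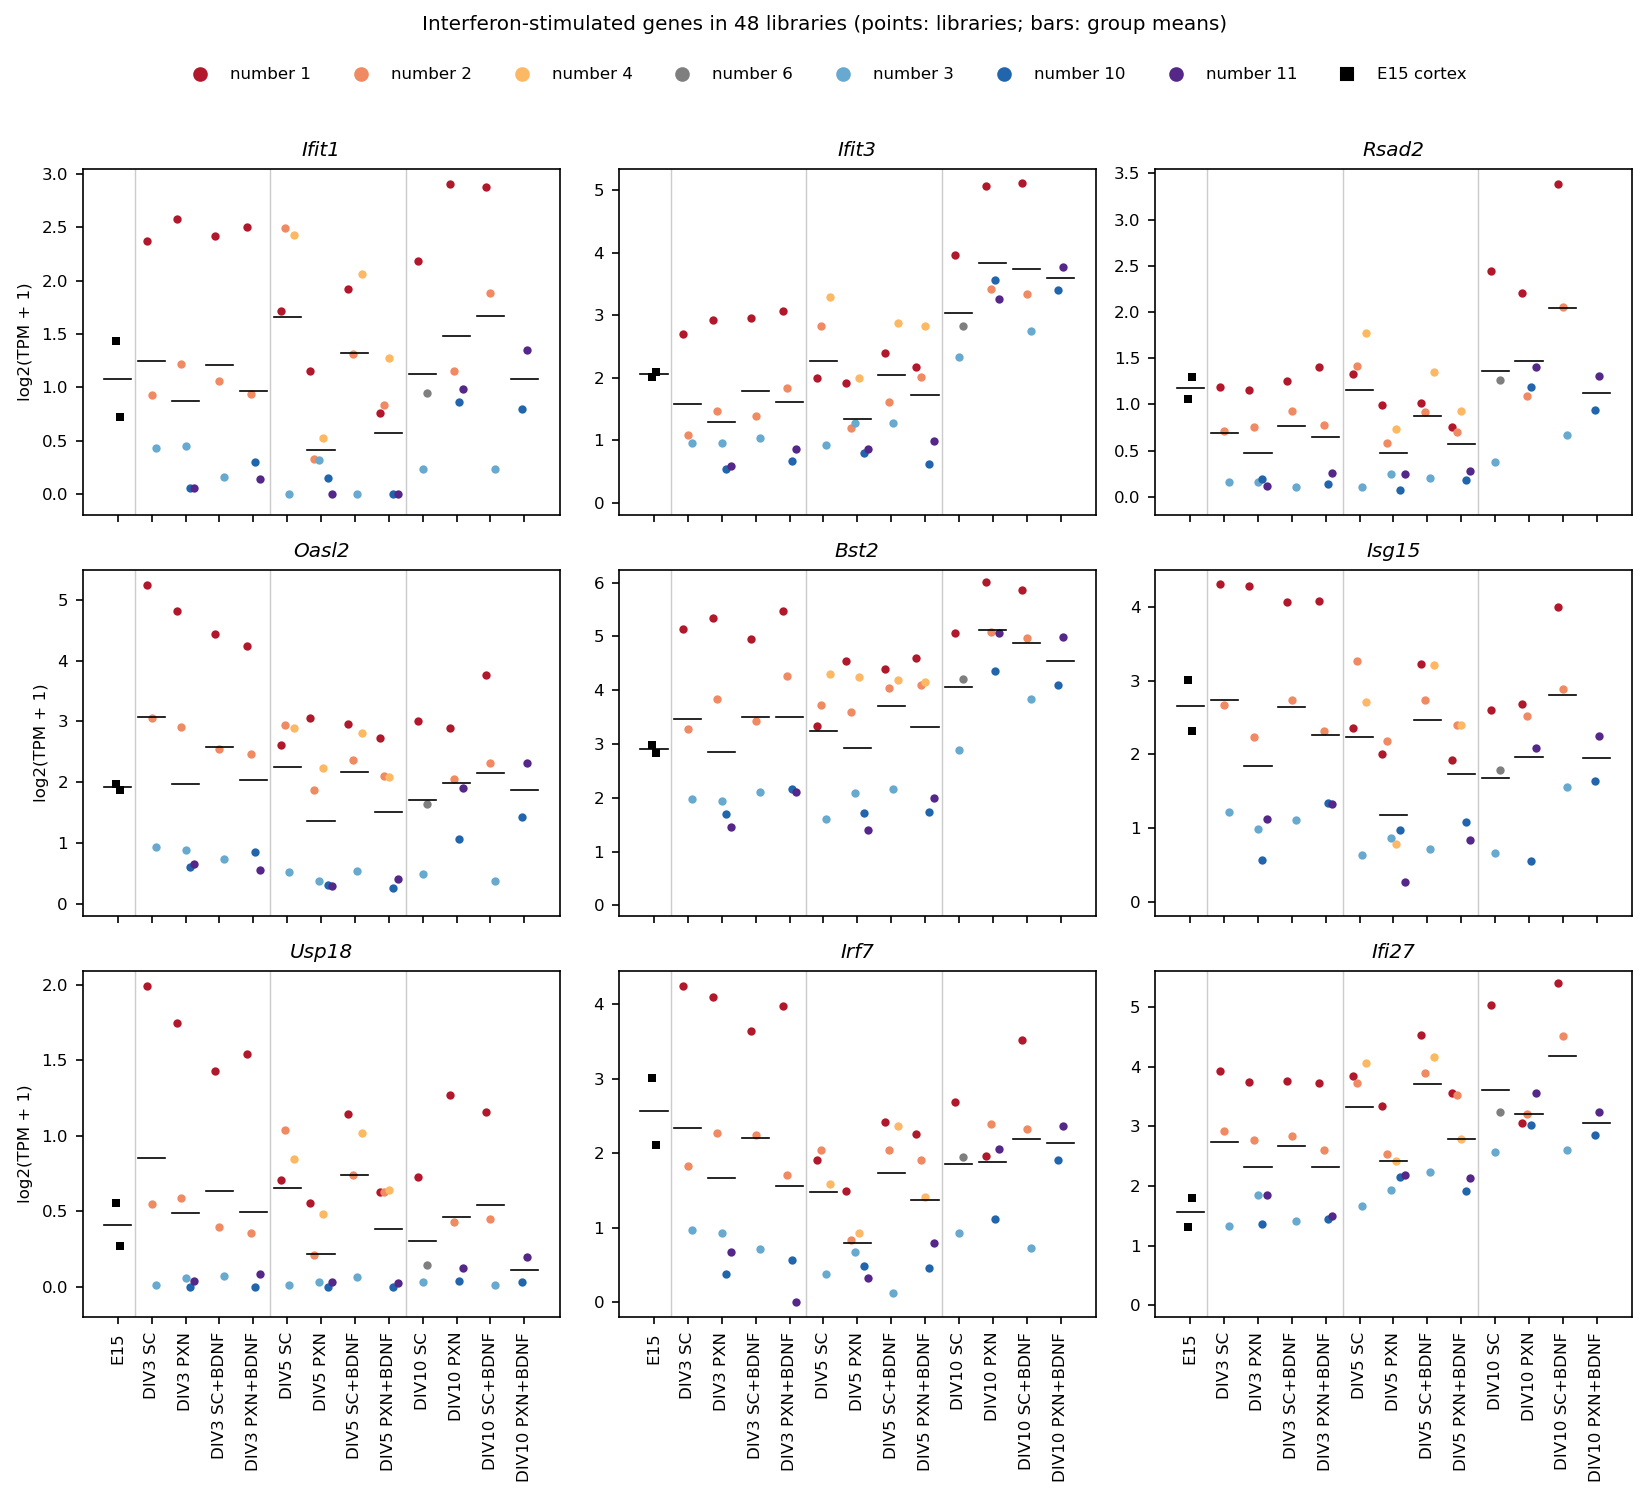
Level of each gene as log2(TPM + 1) on the y axis in every library, by group on the x axis. Points are libraries coloured by the number in their label, black squares are the 2 E15 libraries and bars are group means; within a group, libraries numbered 1 and 2 mostly sit above those numbered 3, 10 and 11, as for Isg15 at DIV3, where number 1 lies between 15.8 and 18.8 TPM and number 3 between 0.986 and 1.33 TPM.

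The levels followed the number in the library label. The labels give each library a number that recurs in other groups, and do not say what it marks. At DIV3, Isg15 in the 4 libraries numbered 1 was 18.8 TPM (SC), 18.5 TPM (PXN), 15.8 TPM (SC with BDNF) and 16.0 TPM (PXN with BDNF). In the libraries numbered 2 it was 5.39, 3.72, 5.69 and 4.0 TPM in the same order. The SC libraries numbered 3 had 1.33 TPM without and 1.15 TPM with BDNF, and the PXN library numbered 3 had 0.986 TPM. Those numbered 10 and 11 received paxillin siRNA only and lay between 0.473 and 1.53 TPM. So the DIV3 libraries fell into high, middle and low levels by number, and each level held both siRNAs except for 10 and 11.

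Oasl2 showed the same order at DIV3, from 18 to 37.0 TPM for number 1, from 4.55 to 7.33 TPM for number 2 and from 0.678 to 0.913 TPM for number 3. Irf7 ranged from 11.6 to 17.9 TPM in number 1 against 0.642 to 0.955 TPM in number 3, and Usp18 from 1.69 to 2.98 TPM against 0.0106 to 0.0532 TPM. At DIV5 a further number, 4, occurred, and it was among the high libraries under SC. Ifit1 in the DIV5 SC libraries was 2.27 TPM for number 1, 4.63 TPM for number 2, listed at 0 for number 3 and 4.37 TPM for number 4. Bst2 in the same libraries was 9.13, 12.2, 2.04 and 18.8 TPM. At DIV10, Bst2 was 56.9, 30.2 and 13.3 TPM in the SC libraries with BDNF numbered 1, 2 and 3.

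In a limma fit with a term for each group and each number, an analysis chosen after these values were seen, the number passed the test for 8 of the 8 genes tested, with adjusted p from 1.2e-10 (Oasl2) to 9.3e-07 (Irf7). Number passed for 64.7% of all 14250 genes, so the count alone does not set these genes apart. The number accounted for between 75.9% (Irf7) and 89.8% (Oasl2) of the variance within groups, beside a median of 43.8% over all genes tested. The column name of each library also ends in a further number, the library number. These were grouped here into 4 series, which no label names. Low library numbers recur, so placing a library in a series was a choice made here. The series overlap with the label number, since label numbers 10 and 11 were in series that held no SC library. At DIV3 and DIV10, all libraries numbered 1 or 2 were in the series 65 to 84 and all numbered 3 in the series 1 to 15. On those days, label number and series cannot be told apart between numbers 1 or 2 and number 3. The 4 DIV5 SC libraries above, with Ifit1 from a listed 0 to 4.63 TPM, were all in the series 1 to 15. Whether the number stands for a culture, a litter or a date cannot be told from the labels.

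**Figure D2:**
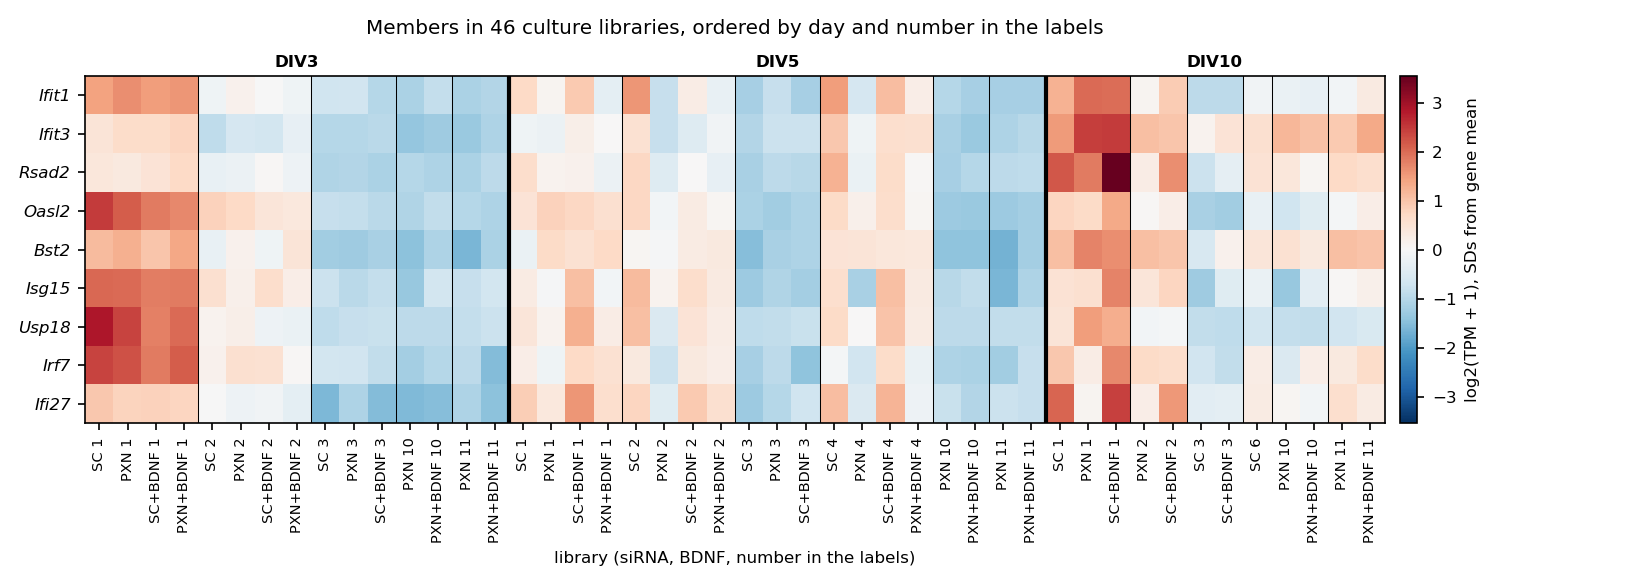
Heat map of the 9 genes (rows) in the 46 culture libraries (columns), ordered by day and then by the number in the label, with colour giving log2(TPM + 1) in SDs from the mean of the gene. Thin lines part the numbers and thick lines the days, and colour changes at the thin lines more than between SC and PXN libraries of the same number, most plainly at DIV3; at DIV5 the PXN libraries numbered 2 and 4 are paler than their SC partners.

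The genes moved together across libraries. After subtracting group means, the 28 pairwise correlations among the 8 tested genes over the 46 culture libraries ran from r = 0.804 (Irf7 with Rsad2) to r = 0.974 (Oasl2 with Bst2), with a median of 0.893. Over all 48 libraries the genes whose log2(TPM + 1) was closest to the mean standardised level of the 8 were Ddx58 (r = 0.950), Irgm1 (0.947), Ifitm3 (0.930), Parp9 (0.921), H2-Q4 (0.915), Zc3hav1 (0.896), Dtx3l (0.892) and Igtp (0.886). These points share libraries and label numbers, and the values are a description only. Ifit3 has a near-identical neighbour, Ifit3b, with a median of 1.21 TPM and a highest value of 14.7 TPM. Reads of the pair could have been split between them, so the level of Ifit3 is less certain than its decimals.

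Marker lists of other cell types moved with the genes in part. Over the 46 culture libraries, after subtracting group means, the mean standardised level of the 8 genes correlated with the summed TPM of 9 astrocyte markers at r = 0.649, of 7 pericyte and fibroblast markers at 0.561, of 12 microglia markers at 0.499, of 7 endothelial markers at 0.426, of 7 oligodendrocyte lineage markers at 0.299, of 8 markers of dividing progenitors at 0.290, of 8 neuronal markers at -0.102 and of 6 red blood cell markers at -0.145. Every marker of every list was above 0 in at least 1 library. Neuronal markers summed to between 532 and 3656 TPM in each library. At DIV10 the microglia sum also differed by number, in another order than Oasl2. It was 2543 and 2645 TPM in the libraries numbered 11 and 354 to 1048 TPM in number 1. Oasl2 was 2.76 and 3.98 TPM in number 11 and 6.41 to 12.6 TPM in number 1. The part of any of these cell types in the levels was not tested. In bulk RNA, fewer cells of a type and less RNA per cell cannot be told apart.

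Paxillin mRNA (Pxn), the siRNA target, was compared in libraries sharing a day, BDNF state and number. It was lower in 11 of 13 such pairs, with a median of 79.2% of the SC partner. At DIV5 the groups without BDNF did not overlap, with 8.43 to 9.83 TPM under PXN and 12.4 to 19.9 TPM under SC. Elsewhere they overlapped, at DIV3 with 7.79 to 11.4 TPM against 9.16 to 11.7 TPM and at DIV10 with 11.5 to 18.8 TPM against 8.99 to 19.9 TPM, and the DIV10 library labelled PXN and numbered 1 had 209% of its SC partner. Results at DIV3 and DIV10 therefore refer to libraries labelled by siRNA, not to a measured loss of the transcript.

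To ask whether cultures that had received siRNA held more interferon-stimulated transcripts than untreated E15 cortex, SC and PXN cultures without BDNF were compared with E15 at each day. At DIV3 and DIV5 none of the 8 genes passed the test, none had an unadjusted p under 0.05, and 5 of 8 and 6 of 8 estimates were negative. These directions depended on the label number, since with it as a block 6 of 8 estimates at DIV3 and 5 of 8 at DIV5 were positive, with 3 and 2 calls beside 30.7% and 44.9% of all genes, although E15 and culture numbers share only a name. At DIV10, Ifi27 was called higher. In the same contrasts 13.6% of all genes were called at DIV3, 28.9% at DIV5 and 50.1% at DIV10, so a call in 1 of 8 genes at DIV10 was below the background.

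In the E15 libraries numbered 1 and 2, Ifit1 was 1.71 and 0.651 TPM and Ifit3 was 3.03 and 3.27 TPM. Isg15 was 7.05 and 3.97 TPM, and its protease Usp18 was 0.469 and 0.206 TPM. Irf7 was 7.08 and 3.34 TPM, the third highest of the 13 group means. Of the 46 culture libraries, the number that exceeded both E15 libraries was 5 for Irf7, 8 for Isg15, 11 for Rsad2, 13 for Ifit1, 17 for Usp18, 22 for Ifit3, 25 for Oasl2, 31 for Bst2 and 40 for Ifi27.

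The 8 DIV3 libraries without BDNF that were set against these values ranged from 0.298 to 17.9 TPM for Irf7, on both sides of E15, with a difference of -0.56 ± 0.86 (log2 scale of TPM + 1, standard error) and an adjusted p of 0.71 by limma. Oasl2, at 2.90 and 2.66 TPM in E15, ranged from 0.517 to 37.0 TPM, a difference of 0.61 ± 1.07 with adjusted p = 0.74. At DIV5, the estimate farthest from 0 was that of Irf7, at -1.43 ± 0.84 with adjusted p = 0.20. Usp18 in the fit without a filter differed by 0.26 ± 0.43 at DIV3, 0.02 ± 0.42 at DIV5 and -0.03 ± 0.44 at DIV10, with adjusted p of 0.87, 1.00 and 1.00 by limma.

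Ifi27 had its lowest group mean in E15, at 1.49 and 2.48 TPM. In the DIV10 SC libraries it was 31.9, 4.92 and 8.45 TPM (numbers 1, 3 and 6), and in the DIV10 PXN libraries 7.28, 8.20, 7.10 and 10.7 TPM (numbers 1, 2, 10 and 11). All 7 lay above both E15 libraries, in a contrast that called 50.1% of all genes. The share of all genes separated in this way is not given. The difference was 1.85 ± 0.73 with adjusted p = 0.033 by limma, and it lost its call without either E15 library (adjusted p = 0.20 and 0.096) and without the SC library numbered 1 (0.085). The Ifi27 estimates were 0.97 ± 0.72 at DIV3 (adjusted p = 0.39) and 1.32 ± 0.71 at DIV5 (adjusted p = 0.16), with culture libraries inside the E15 range on both days.

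Ifit3 and Bst2 did not pass at DIV10. Ifit3, 3.03 and 3.27 TPM in E15, was 14.6, 4.02 and 6.12 TPM under SC and 32.5, 9.68, 10.8 and 8.61 TPM under PXN. The difference was 1.38 ± 0.68 with adjusted p = 0.089 by limma. Bst2, 6.87 and 6.15 TPM in E15, was 32.7, 6.40 and 17.5 TPM under SC and 63.6, 33, 19.4 and 32.4 TPM under PXN, a difference of 1.69 ± 0.99 with adjusted p = 0.16. Isg15 and Irf7 had negative estimates at DIV10 (-0.84 ± 0.87 and -0.70 ± 0.86). In this fit the genes did not share a direction against E15, whereas with the number as a block 7 of 8 estimates at DIV10 were positive and 5 were called, beside 61.5% of all genes. The E15 libraries also differed in make-up, since 7 endothelial markers summed to 422 and 466 TPM there and to between 0.539 and 12.8 TPM in cultures. Microglia markers summed to 98.3 and 137 TPM in E15, 33.8 to 124 TPM at DIV3, 42.0 to 323 TPM at DIV5 and 331 to 2645 TPM at DIV10. The part of either list in the result was not tested.

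The wider pathway was read from 5 lists. Each list count against E15 stands beside 13.6% of all genes called at DIV3, 28.9% at DIV5 and 50.1% at DIV10. None of 21 interferon genes reached the 1 TPM filter, 14 of them, Ifnb1 among them, were listed at 0 in all 48 libraries, and the highest single value was 0.694 TPM. Among 13 tested receptors and signal transducers, 1 rose at DIV3, 2 at DIV5, and 2 rose and 2 fell at DIV10. Stat2 rose by 1.21 ± 0.22 at DIV3 (adjusted p = 0.00042), with 24.0 and 26.6 TPM in E15 and 57.7 ± 16.2 TPM in DIV3 SC (n = 3). Jak2, a kinase of the interferon gamma receptor and of many cytokine receptors, fell by 1.03 ± 0.20 at DIV10 (adjusted p = 4.5e-05).

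Of 41 tested further interferon-stimulated genes, 2 fell at DIV3 (limma, the same threshold), 3 rose and 3 fell at DIV5, and 14 rose and 4 fell at DIV10. The class I antigen-presentation gene H2-K1 was 14 and 17.7 TPM in E15 and 233 ± 133 TPM in DIV10 SC, a rise of 3.73 ± 0.74 (adjusted p = 8.5e-05). It rose at DIV5 as well (3.09 ± 0.72), with H2-D1 (2.02 ± 0.50). These class I genes share long near-identical stretches, so their reads can be split between copies. Cxcl10, a chemokine, rose by 3.69 ± 1.36 at DIV10 (adjusted p = 0.023). Ifitm2, which restricts virus entry, fell at DIV3, DIV5 and DIV10 by 2.14 ± 0.57, 2.7 ± 0.55 and 1.82 ± 0.57, and Slfn5, a Schlafen-family gene, fell by 1.92 ± 0.36, 2.57 ± 0.35 and 1.53 ± 0.36. Ube2l6, the enzyme that conjugates Isg15, fell at DIV5 (-0.70 ± 0.25, adjusted p = 0.028).

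Nucleic acid sensors and adaptors, 14 tested, held 1 call at DIV3, where the endosomal DNA sensor Tlr9 fell by 0.90 ± 0.27 (adjusted p = 0.023), 1 higher at DIV5, and 10 higher and 1 lower at DIV10. Of 10 tested NF-kB inflammatory genes, 2 rose at DIV5, with Nfkbiz, a nuclear NF-kB regulator, at 1.20 ± 0.31, and 7 rose at DIV10, with Cxcl1, a neutrophil chemokine, at 3.40 ± 0.86 (adjusted p = 0.0012). The median difference at DIV10 was 1.29 for the sensors, 1.40 for the NF-kB genes, 0.61 for the further interferon-stimulated genes and 0.23 for the 8 listed genes, beside -0.01 for all genes tested. The microglia sums above were highest at DIV10, and their part in these calls was not tested.

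**Figure D3:**
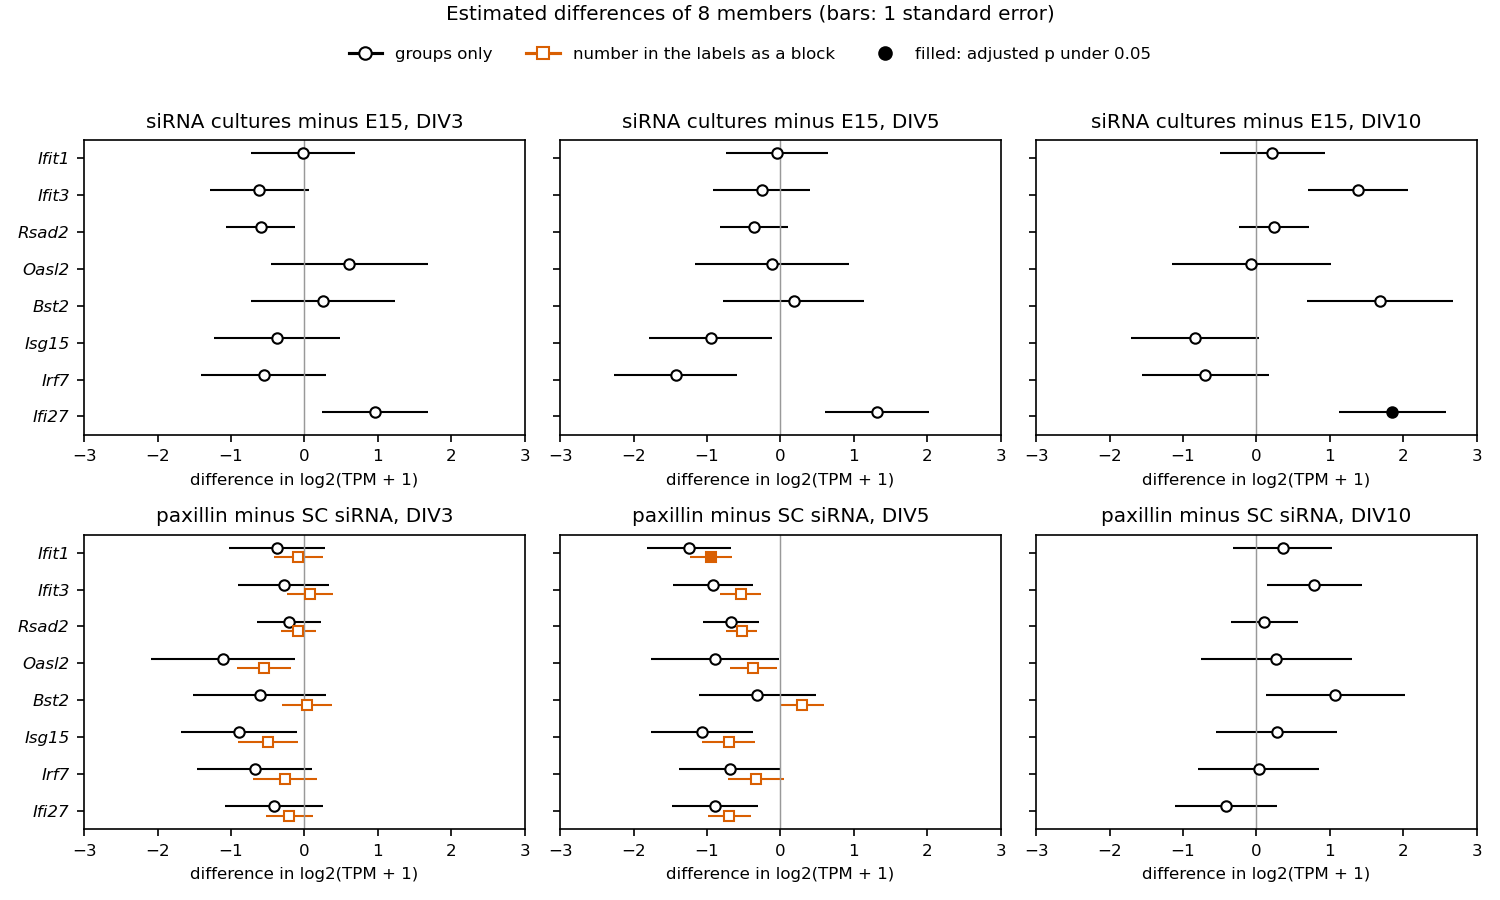
Estimated difference in log2(TPM + 1) on the x axis for 8 genes on the y axis, with bars of 1 standard error, for siRNA cultures minus E15 (top row) and paxillin minus SC siRNA (bottom row) at each day. Black circles are from the fit with groups only and orange squares, drawn in the bottom row at DIV3 and DIV5 only, from the fit with the label number as a block; filled symbols passed an adjusted p of 0.05, which among the symbols drawn were Ifi27 against E15 at DIV10 and Ifit1 for paxillin minus SC siRNA at DIV5 with the block.

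Whether the targeted siRNA differed from the scrambled one was asked at each day. At DIV3, without BDNF, none of the 8 genes passed (adjusted p = 1.00 for each by limma, none with an unadjusted p under 0.05), and 0% of all genes did. Estimates ran from -1.10 (Oasl2) to -0.21 (Rsad2), all negative. The numbers 10 and 11 were low and had no SC partner. Within the numbers 1, 2 and 3, PXN was higher than SC for 3, 6 and 4 of the 9 genes. For Bst2, the SC libraries had 34.1, 8.67 and 2.95 TPM and the PXN libraries of the same numbers 39.5, 13.3 and 2.82 TPM, while PXN numbers 10 and 11 had 2.26 and 1.75 TPM. With the number as a block, Bst2 differed by 0.04 ± 0.34 in place of -0.61 ± 0.90, and none of the 8 was called. Rsad2, the gene with the smallest error there, differed by -0.08 ± 0.24.

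At DIV5 the 8 estimates without BDNF were again all negative, from -1.24 (Ifit1) to -0.31 (Bst2), with a median of -0.89 beside -0.08 for all genes. None passed (adjusted p from 0.19 to 0.86 by limma), 1 had an unadjusted p under 0.05, and 6.18% of all genes passed. With the number as a block, for which the DIV5 libraries qualify as pairs, 1 of 8 was called, Ifit1, and 22.1% of all genes were. The share of the listed genes called was thus below the background in both of these fits, but above it in the fits that follow. The calls moved with how the number entered, because a block within each day, chosen after the data were seen, called 5 of 8 lower (Ifi27, Ifit1, Ifit3, Isg15 and Rsad2) beside 39.6% of all genes, and a term for the series of library numbers called 4 of 8 beside 21.8%.

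Ifit1 in the DIV5 PXN libraries ranged from a listed 0 to 1.22 TPM with a median of 0.254 TPM, against 2.27, 4.63, 0 and 4.37 TPM under SC. By number, PXN had 1.22, 0.257, 0.250 and 0.438 TPM for numbers 1 to 4, so it was lower in 3 pairs and higher in the pair numbered 3. The difference was -0.95 ± 0.29 with adjusted p = 0.019 by limma with the block, and -1.24 ± 0.57 with adjusted p = 0.19 without it. The call with the block was lost without the PXN library numbered 4 (adjusted p = 0.097), the SC library numbered 2 (0.19) or the SC library numbered 4 (0.083). Without the block, leaving out the SC library numbered 3 gave a call (-1.80, adjusted p = 0.037).

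Ifi27 was 13.4, 12.2, 2.17 and 15.6 TPM under SC and 9.07, 4.77, 2.82 and 4.37 TPM under PXN for numbers 1 to 4, and -0.69 ± 0.29 with the block (adjusted p = 0.078). Isg15 was 4.13, 8.68, 0.544 and 5.53 TPM against 3.01, 3.55, 0.818 and 0.717 TPM, and -0.70 ± 0.36 with the block (adjusted p = 0.16). Bst2 went the other way with the block, at 0.30 ± 0.30 (adjusted p = 0.49), and was 22.3 TPM under PXN and 9.13 TPM under SC in number 1. Usp18, from the fit without a filter, was 0.633, 1.06, 0.0101 and 0.797 TPM under SC and 0.468, 0.156, 0.0228 and 0.400 TPM under PXN (-0.43 ± 0.35, adjusted p = 0.65).

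Over the 9 genes, PXN was lower than SC in 7 for number 1, in all 9 for number 2, in 1 for number 3 and in all 9 for number 4. The SC libraries numbered 1 and 2 came from another series of library numbers than their PXN partners, whereas 3 and 4 were each matched within a series. The sum of 9 astrocyte markers was lower under PXN in each number. It was 4448, 7323, 1407 and 8688 TPM under SC and 2060, 1927, 1149 and 1690 TPM under PXN for numbers 1 to 4. That held for number 3 too, where only 1 of the 9 genes was lower. The astrocyte sum was high in the same 3 SC libraries in which Ifit1, Isg15 and Ifi27 were high, and it was not alone in this. Oligodendrocyte lineage markers summed to 3257, 5171, 1617 and 4267 TPM under SC and 1569, 1939, 1247 and 1439 TPM under PXN. Markers of dividing progenitors summed to 1589, 2107, 1301 and 2359 TPM against 910, 855, 1107 and 991 TPM. Neuronal markers summed to 2053, 1394, 2498 and 1322 TPM against 2694, 2032, 2336 and 1839 TPM. Microglia markers summed to 79.4, 187, 75.3 and 136 TPM under SC and 103, 115, 105 and 95.7 TPM under PXN. The part of these cell types in the difference was not tested.

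**Figure D4:**
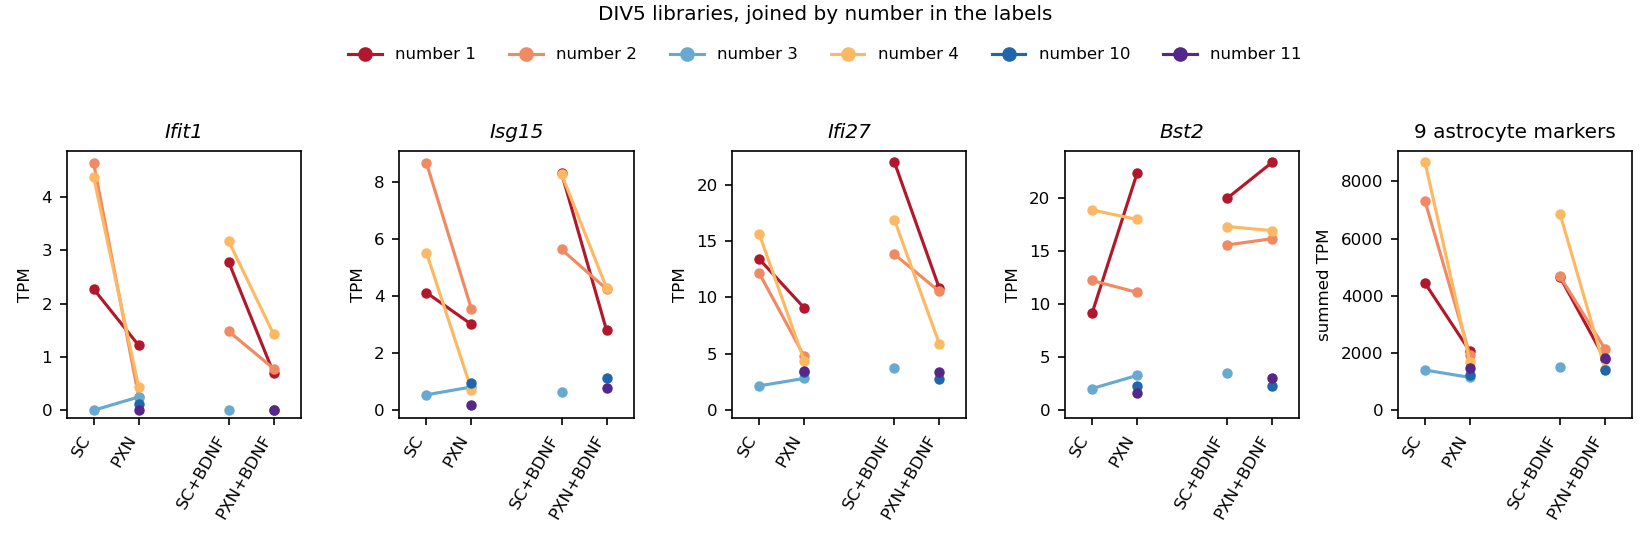
TPM of Ifit1, Isg15, Ifi27 and Bst2, and summed TPM of 9 astrocyte markers, on the y axes in the DIV5 libraries by siRNA and BDNF on the x axis. Lines join libraries that share a label number and points without a line have no partner; numbers 1, 2 and 4 lie lower under PXN than under SC for Ifit1, Isg15, Ifi27 and the astrocyte sum (2060 against 4448, 1927 against 7323 and 1690 against 8688 TPM without BDNF), whereas number 3 starts low.

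Among the lists at DIV5 without BDNF, the fit with groups only, which called 6.18% of all genes, gave few calls. It called 2 further interferon-stimulated genes lower of 41, 1 sensor or adaptor of 14 and 1 NF-kB gene of 10. These included Mavs, the adaptor of the RNA sensors (-1.08 ± 0.23, adjusted p = 0.0040, 13.6 ± 6.11 TPM under SC, n = 4, against 5.42 ± 0.567 TPM under PXN, n = 6), Nfkb2, an NF-kB subunit (-1.09 ± 0.27, adjusted p = 0.013), and Znfx1, a helicase that senses RNA (-0.36 ± 0.10, adjusted p = 0.028). With the block, which called 22.1% of all genes, 19 of 41 further interferon-stimulated genes were lower and 1 higher. In the same fit 3 of 14 sensors and adaptors and 2 of 10 NF-kB genes were lower. Of 13 receptors or transducers, 3 were lower and 1 higher. The leading ones were Cxcl10 (-2.47 ± 0.63), and the guanylate-binding proteins Gbp3 (-1.73 ± 0.45) and Gbp2 (-1.37 ± 0.41), while H2-D1 (0.64 ± 0.20) and Stat2 (0.58 ± 0.13) were higher. Cxcl10 averaged 75.6 ± 100 TPM under SC, an SD larger than its mean.

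At DIV10 no gene of the 8 passed (adjusted p from 0.47 to 0.99, none with an unadjusted p under 0.05), and 2.58% of all genes did. The estimates were positive for 7, up to 1.07 ± 0.94 for Bst2 and 0.79 ± 0.65 for Ifit3, and -0.41 ± 0.69 for Ifi27. Only number 1 occurred under both siRNAs. There Ifit3 was 14.6 TPM under SC and 32.5 TPM under PXN, Bst2 32.7 and 63.6 TPM, and Ifi27 31.9 and 7.28 TPM. In this pair the astrocyte markers summed to 8659 TPM under SC and 1689 TPM under PXN. The sum was thus lower under PXN, as were Ifi27, Irf7, Oasl2 and Rsad2, whereas Ifit1, Ifit3, Isg15, Bst2 and Usp18 were higher. The neuronal markers summed to 2709 and 532 TPM, and 532 TPM was the lowest of all libraries. The part of the cell make-up in these differences was not tested. Of the lists, no gene was called by limma, with an unadjusted p under 0.05 for 2 of 41 further interferon-stimulated genes and for 1 each of the receptors, the sensors and the NF-kB genes. No share of all genes under that unadjusted threshold is given beside these counts.

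With BDNF the contrast between siRNAs gave no call at any day (none with an unadjusted p under 0.05), beside 0% of all genes at DIV3, 0.596% at DIV5 and 0.0211% at DIV10. At DIV5 all 8 estimates were negative, from -0.92 ± 0.61 (Ifi27, adjusted p = 0.41) to -0.30 ± 0.40 (Rsad2). Ifi27 was 22.0, 13.8 and 16.9 TPM under SC and 10.8, 10.5 and 5.89 TPM under PXN for the shared numbers 1, 2 and 4. These 3 pairs were each matched within a series, and PXN was lower for 8, 7 and 9 of the 9 genes. The astrocyte sums were 4659, 4682 and 6869 TPM under SC and 1779, 2146 and 1451 TPM under PXN. Oligodendrocyte lineage markers summed to 3845, 5128 and 5419 TPM against 1426, 3133 and 2176 TPM. Markers of dividing progenitors summed to 1662, 1962 and 2676 TPM against 862, 1362 and 1463 TPM. The part of these cell types was not tested. At DIV3 the estimates ran from -0.64 (Irf7) to 0.01 (Bst2), and at DIV10, where no number was shared, from -1.12 (Ifi27) to -0.05 (Irf7, and 0.13 with a pseudocount of 0.1). The lists held no call by limma at these 3 days. At DIV5 an unadjusted p under 0.05 was reached by 7 of 41 further interferon-stimulated genes, 4 of 10 NF-kB genes, 3 of 14 sensors and 1 of 13 receptors and transducers. At DIV3 and DIV10 at most 3 genes of a list reached it. The share of all genes under this unadjusted threshold is not given, so no excess is read from these counts.

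Whether the effect of paxillin siRNA differed between days or with BDNF was tested directly in 48 interaction terms. None passed or had an unadjusted p under 0.05, and the lowest adjusted p was 0.20 by limma. The share of all genes passing in these terms is not given, so the counts here cannot be read as particular to the listed genes. With the number as a block, 1 of the 48 passed, Ifit3 at DIV10 minus DIV5 (1.55, adjusted p = 0.029), where only 1 number was shared between the siRNAs at DIV10. The change of sign between DIV5 and DIV10 therefore did not pass for any of the 8 genes with groups only, and passed for Ifit3 with the block.

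BDNF, a neurotrophin that acts through TrkB, was compared with no BDNF under each siRNA. None of the 8 genes passed in any of the 6 contrasts (none with an unadjusted p under 0.05), beside 1.21%, 0.0491% and 0% of all genes under SC at DIV3, DIV5 and DIV10, and 2.14%, 0.014% and 0.014% under PXN. At DIV3 the libraries of the same number lay close together, as in Ifit1 under SC with 4.17, 0.904 and 0.347 TPM without and 4.34, 1.09 and 0.117 TPM with BDNF. Rsad2 was 1.28, 0.637 and 0.116 TPM without and 1.38, 0.904 and 0.0777 TPM with BDNF. The difference for Ifit1 was -0.03 ± 0.36 with the number as a block.

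The largest BDNF estimate was that of Isg15 under SC at DIV10, at 1.13 ± 0.88 (adjusted p = 1.00). Isg15 there was 5.07, 0.583 and 2.46 TPM without BDNF (numbers 1, 3 and 6) and 15, 6.38 and 1.94 TPM with it (numbers 1, 2 and 3). In number 1 all 9 genes were higher with BDNF, and in number 3 it was 5 of 9. Under PXN at DIV10, Ifit1 was 0.821 and 0.972 TPM without and 0.738 and 1.55 TPM with BDNF in numbers 10 and 11. Under PXN at DIV5, all 8 estimates were positive, up to 0.58 ± 0.65 for Irf7 (adjusted p = 0.87), and with the block 5 of 8 were. No list gene was called for BDNF by limma with groups only, and at most 4 genes of a list had an unadjusted p under 0.05 in any of these contrasts. No share of all genes under that unadjusted threshold is given beside this count.

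Standard errors for the 8 genes over the 15 contrasts ran from 0.36 to 1.23 on the log2 scale with groups only and from 0.19 to 0.58 with the block. Differences of about the size of these errors were not detectable here. Some clearly larger than their own error did not pass with groups only either, as for Ifit1 between siRNAs at DIV5 and Ifit3 against E15 at DIV10. The p-values measure the spread between the labelled libraries, which the labels do not tie to separate animals.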

How the data were processed

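Bulk RNA-seq of mouse cortical cultures and E15 cortex was analysed from the deposited TPM table. Per the labels and the study's methods, libraries were made with an mRNA kit, sequenced as paired reads, aligned to GRCm38 with STAR 2.7.10 and quantified with RSEM 1.3.3 by the authors, who deposited TPM values, which have the same sum in each library and so leave the depth unknown. The hippocampus transcript counts were not used here.

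TPM was transformed to log2(TPM + 1). A gene was tested if its TPM averaged 1 or more over the 48 libraries (14250 genes). limma 3.58.1 (R 4.3.3; lmFit, contrasts, eBayes with trend) was fitted to all 13 groups, and p-values were Benjamini-Hochberg adjusted over all genes tested, with a threshold of 0.05. The script was tested on simulated data. All 9 listed genes were named, with counts for 5 pathway lists and up to 3 rises and 3 falls per contrast. The members and lists were chosen with earlier results of these data known. Promoter windows came from RefSeq (GRCm38.p6), read with Python 3.11.15.

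The number in the labels was tested as a replicate block. Where at least 3 numbers were shared, deviations from the group mean in same-numbered libraries correlated over genes at 0.28 to 0.81 for paxillin against SC siRNA at DIV3 and 0.24 to 0.49 at DIV5, and at 0.29 or more for BDNF under either siRNA at DIV3 and DIV5. These were treated as pairs. Alternatives were another pseudocount (0.1), no filter, median ratio rescaling, fits of the compared groups only, a term for the series of library numbers, omission of the numbers 10 and 11, and omission of each library in turn.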

Additional observations from a re-analysis of the deposited data

Results flagged for a closer look

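In 7 groups of 4 to 6 libraries, 63 gene and group combinations were checked for a highest or lowest library far from the rest. The rule, the gap to its neighbour as a share of the range, was applied to TPM without a log transform. On that scale high values stand apart more readily, so no share expected by chance is given. The rule marked 12, and in each the library was the highest and numbered 1. In DIV3 PXN these were Ifit1 at 4.95 TPM (next 1.33), Ifit3 at 6.61 (1.77), Isg15 at 18.5 (3.72), Irf7 at 16.2 (3.82), Oasl2 at 27.3 (6.55) and Usp18 at 2.36 TPM (0.507). In DIV3 PXN with BDNF they were Irf7 at 14.7 TPM (next 2.27) and Usp18 at 1.91 TPM (0.279). In DIV5 PXN they were Ifit1 at 1.22 TPM (next 0.438) and Ifi27 at 9.07 TPM (4.77), and in DIV10 PXN Ifit1 at 6.49 TPM (1.22) and Ifit3 at 32.5 TPM (10.8). The 12 come from 4 libraries and are not independent. SC groups at DIV3 and DIV10 held 3 libraries and were not checked.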

How the results depend on the processing

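The label number mattered most. With it as a replicate block, the number of the 8 genes called went from 0 to 3 at DIV3, from 0 to 2 at DIV5 and from 1 to 5 at DIV10 against E15, beside 30.7%, 44.9% and 61.5% of all genes, where Oasl2 at DIV10 turned from -0.07 to 0.98 (adjusted p = 0.041); E15 and culture numbers share only a name. For paxillin against SC siRNA it went from 0 to 1 at DIV5 (Ifit1), from 0 to 1 at DIV10 (Bst2, 1.5, adjusted p = 0.015) and from 0 to 1 at DIV5 with BDNF (Ifi27, -0.94, adjusted p = 0.026), beside 22.1%, 18.7% and 21.3% of all genes, the last 2 contrasts not qualifying as pairs (correlations of -0.435 for the single pair at DIV10, and 0.079 to 0.366 over 3 pairs). The block changed no other count. With the block, 1 of 48 interaction terms passed (Ifit3, DIV10 minus DIV5), with no share of all genes given beside it.

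A block within each day, added after the data were seen, called 5 genes lower at DIV5 (Ifi27, Ifit1, Ifit3, Isg15 and Rsad2), 3 at DIV10 (Bst2 and Ifit3 higher, Ifi27 lower), 2 lower at DIV5 with BDNF (Ifi27 and Ifit1) and 2 lower at DIV10 with BDNF (Ifi27 and Rsad2), beside 39.6%, 62.4%, 38.5% and 51.5% of all genes in these fits. A term for the series of library numbers called 4 lower at DIV5 (Ifi27, Ifit1, Isg15 and Rsad2) and 1 against E15 at DIV5 (Ifi27, 1.84), beside 21.8% and 38.5%. Fitting only the compared groups called 1 against E15 at DIV5 (Irf7, -1.43, adjusted p = 0.018), beside 28% of all genes.

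The call of Ifi27 against E15 at DIV10 was lost, leaving 0 genes, without the filter (adjusted p = 0.054) and without numbers 10 and 11 (0.059), and it was 0 or 1 when a library was left out. Paxillin against SC siRNA at DIV5 likewise gave 0 or 1. With the block, leaving out a library at DIV5 gave 0 to 3. Pseudocount 0.1 and median ratio rescaling changed no count. The causes were not tested. Of the estimates for single genes under alternatives, 1628 kept their direction and side of the threshold, 31 gained a call, 6 lost one, 262 changed sign without being called, and 1 (Oasl2) reversed. TPM keeps no depth, and 2 E15 libraries limit every contrast with E15.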
